A study of Arabidopsis thaliana with 2 samples.

Results

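MBD9 summits in 5' UTRs are the bases of highest ChIP signal that fell in a transcribed leader, between the transcription start site (TSS) and the start codon of a gene. A summit of the deposited list was taken when it lay in an exon of a protein-coding gene, upstream of the coding sequence of the first transcript listed for that gene. Summits within 1 kb upstream of the TSS of another protein-coding gene, or within 100 bp of a tRNA gene, were left out. These conditions gave 1426 of the 13993 summits, which is 10.2% (95% Wilson interval 9.70 to 10.7). They lay in 1365 peaks and in 1359 of the 19697 protein-coding genes whose 5' UTR has a base that meets these conditions, a background of 6.90% of genes. The gene models alone gave 1645 summits, of which 217 were left out because another gene started downstream and 2 because of a tRNA gene. Among the 1426, 4 lay in the 5' UTRs of 2 genes and were given to 1 of them.

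MBD9, from *Arabidopsis thaliana*, belongs to the proteins with a methyl-CpG-binding domain, and the experiment asked which chromatin it occupies. ChIP-seq with a FLAG antibody was done on Col-0 plants 13 days after germination (shoots in the labels, seedlings in the study's methods), from plants of a complementing line whose own *MBD9* is mutated (*mbd9-3*) and that carry MBD9-3xFLAG under the *MBD9* promoter, and from untagged wild type without the transgene. There was 1 library per group, the wild-type FLAG library served as the control of the peak calling, and no difference below could be checked against replicates. The score of a summit is -log10 of the q value that the peak caller gave it, the list starts at a score of 2, and the read number behind it is unknown.

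The 5' UTR is the part of a messenger RNA that is transcribed but comes before the start codon, and its DNA lies where the first nucleosomes of the gene are found. In plants and other eukaryotes these nucleosomes often hold the histone variant H2A.Z. The SWR1 complex, with which MBD9 associates, exchanges H2A for H2A.Z there. Chromatin around the TSS is open in active genes, and leaders also hold binding sites for transcription factors, introns and, in many genes, further start sites.

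The sequences below stand at the 8 highest-scoring 5' UTR summits. They are shown because these summits had the highest scores of the class. Each run has 30 bases in the direction of the transcript with the summit at base 16 of the run, read from the RefSeq TAIR10.1 genome. Capitals mark the motifs searched below, which in these runs were GGCCCA (the complement of TGGGCC) and TATAAA.
*ACT2* (chr3:6474730-6474759, plus strand): aattagtttaaaaattagttaacacgaggg
AT4G37550 (chr4:17643350-17643379, plus strand): tcataacataagtcaagaaaatgtcatttt
AT5G23280 (chr5:7842758-7842787, plus strand): ccggagtaataacgcgcgtgagctccaccg
*SULTR1;2* (chr1:29327648-29327677, plus strand): caaacgaGGCCCAccagtttcTATAAAagt
*DFL2* (chr4:1500074-1500103, minus strand): gcaaagaggctttcatgggaccacactgga
AT2G45590 (chr2:18786396-18786425, plus strand): cctcaacgcgccgcgtgcaaatcacgctcc
*MYB17* (chr3:22670849-22670878, plus strand): aatgttgtacgaattttgcgtgtaataaat
AT5G66580 (chr5:26572356-26572385, plus strand): ctgcttgccggtcctgcctctgtctgccac

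Of these 8 runs, 7 hold none of the motifs. *ACT2*, at the top of the class, is among them.

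A second group of sequences holds CACGTG, the G-box, a site bound by bHLH and bZIP transcription factors. The 6 highest-scoring summits with a G-box within 20 bp are shown, with the G-box in capitals, since it was found more often at 5' UTR summits than over all 5' UTR positions.
*TIR1* (chr3:23276517-23276546, minus strand): ggctggtatttgaagcttataagaCACGTG
*NIT1* (chr3:15986709-15986738, plus strand): atgcagagaaaagaaacCACGTGggctagt
*ORA47* (chr1:28144008-28144037, plus strand): ttagccactcaatacaatccgcCACGTGtc
*CK1* (chr1:26971132-26971161, plus strand): atatacCACGTGttttttcctcattggttc
*TMAC2* (chr3:386949-386978, minus strand): tgagcacgttgattattagaCACGTGtcga
*BEH3* (chr4:10352478-10352507, plus strand): ctgagCACGTGttaacacatatgggacatc

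The G-box lies downstream of the summit, toward the start codon, in *TIR1*, *NIT1*, *ORA47* and *TMAC2*, and upstream of it in *CK1* and *BEH3*. *ORA47* encodes an AP2/ERF transcription factor of the jasmonate response, and its summit scored 48.5 at 172 bp from the TSS. *CK1* encodes a choline kinase, with a score of 43.6 at 179 bp. *TMAC2* encodes a protein of the family that binds ABI5, and its score was 41.6 at 88 bp.

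MBD9 summits were denser in 5' UTRs than over the genome. The bases that meet the same conditions make up 3.61% of the nuclear chromosomes, so the summits took a share 2.83 times as large. There were 0.332 summits per kb of 5' UTR (95% Poisson interval 0.315 to 0.349), against 0.117 per kb over the nuclear genome. The density was alike on the 5 chromosomes, from 0.320 per kb on chromosome 2 to 0.370 per kb on chromosome 4. All intervals given here cover counting error only, since summits and genes of 1 library are no replicates of a condition.

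The density was highest next to the TSS and fell along the leader. It was 0.428 per kb in the first 50 bp (381 summits), 0.383 per kb between 100 and 150 bp (237 summits) and 0.110 per kb between 450 and 500 bp (9 summits). On the other side of the TSS, upstream of the same genes, it was 0.508 per kb in the nearest 50 bp (474 summits) and 0.186 per kb between 500 and 450 bp away (163 summits). No step was seen at the TSS beyond the counting intervals, which were 0.386 to 0.473 per kb in the first 50 bp of the leader and 0.463 to 0.556 per kb in the last 50 bp before it. The upstream density stayed between 0.147 and 0.201 per kb from 500 to 200 bp away, so the 5' UTR values passed below that range only beyond 450 bp.

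**Figure D1:**
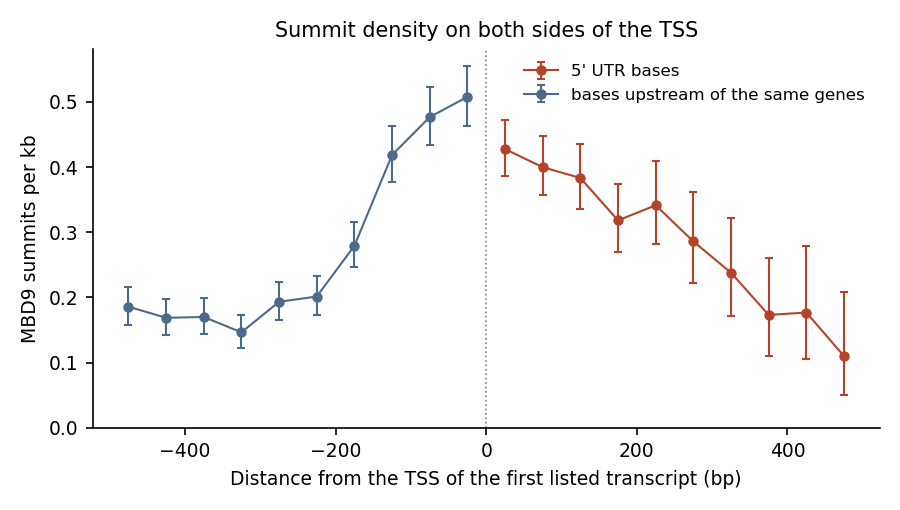
Density of MBD9 summits in 50 bp bins (y axis, summits per kb) by distance from the TSS of the first listed transcript (x axis, bp), for 5' UTR bases in red and for bases upstream of the same genes in blue. Bars are 95% Poisson intervals. The density peaks at 0.508 per kb just upstream of the TSS and falls on both sides, to 0.110 per kb in the last 5' UTR bin and 0.186 per kb in the farthest upstream bin.

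The median 5' UTR summit lay 105 bp from the TSS (95% interval 98 to 111, quartiles 47 and 197 bp), while the median 5' UTR base lay 138 bp from it. Within 100 bp of the TSS were 689 summits (48.3%, 45.7 to 50.9), against 38.7% of 5' UTR bases. Within 300 bp were 1260 summits (88.4%, 86.6 to 89.9), against 77.5% of bases. The summits thus stood nearer to the TSS than the bases open to them. At the first base of the transcript were 10 summits, and the farthest lay 2661 bp away. Reads were extended to 200 bp in peak calling, which is more than the median distance, so a summit at this range cannot be told apart from one just upstream of the TSS by position alone.

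In wider bins the density fell up to 400 bp and was level from there within the counting intervals. It was 0.318 per kb between 200 and 300 bp (186 summits), 0.210 per kb between 300 and 400 bp (65 summits, 0.162 to 0.268), 0.147 per kb between 400 and 500 bp (27 summits), 0.149 per kb between 500 and 1000 bp (51 summits) and 0.173 per kb beyond 1000 bp (23 summits, 0.109 to 0.259). The last 3 values lie above the 0.117 per kb of the genome, though the interval of each includes it. The median score was 8.92 in the first 100 bp (8.07 to 9.85), 5.89 between 400 and 500 bp, its lowest (3.94 to 14.7), and 9.28 beyond 1000 bp, its highest (4.90 to 28.4). These intervals overlap, and Spearman's rho of score with distance over the 1426 summits was -0.08.

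Few summits lay close to the start codon. The density was 0.0839 per kb in the last 50 bp of the leader (70 summits, 0.0654 to 0.106) and 0.164 per kb between 50 and 100 bp from the start codon (110 summits). It reached 0.632 per kb between 200 and 300 bp from it (348 summits, 0.567 to 0.702), and was 0.425 per kb farther out than 500 bp (303 summits). The median distance of a summit to the start codon was 243 bp (234 to 257). These densities pool leaders of all lengths. Nearness to the start codon was not separated from leader length or from distance to the TSS. Nearer to the TSS than to the start codon were 1074 summits (75.3%, 73.0 to 77.5), against 54.7% of 5' UTR bases.

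Genes with a 5' UTR summit had long leaders. The exons of the leader had a median length of 341 bp in genes with a summit (332 to 355, n = 1359) and of 186 bp in all 19697 genes (183 to 188). A longer leader offers more bases, and the median 5' UTR base lay in a leader of 305 bp, against 350.5 bp for the median summit. The share of genes with a summit was 0.579% at lengths under 100 bp (26 of 4493), 2.44% from 100 to 200 bp (150 of 6135) and 8.47% from 200 to 300 bp (354 of 4181). It was 15.4% from 300 to 500 bp (519 of 3377) and 20.5% at 500 bp or more (310 of 1511).

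Length of the leader went with density even at matched distance from the TSS. In the first 100 bp, genes with leaders under 100 bp had 0.107 summits per kb (0.0707 to 0.156) and those with leaders of 100 to 200 bp had 0.215 per kb (0.179 to 0.256). Leaders of 200 to 300 bp had 0.596 per kb (0.522 to 0.677), leaders of 300 to 500 bp 0.717 per kb (0.625 to 0.818) and the longest class 0.620 per kb (0.494 to 0.769). The 3 longer classes overlapped with each other and lay above both shorter classes. Of genes with the shortest leaders, 10.3% had a summit within 1 kb upstream. In the longer classes, in order of length, 17.3%, 23.8%, 26.2% and 25.5% had one. These are shares of genes and cannot be set directly against the densities.

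Most summits lay in the first exon. A leader interrupted by an intron was found in 280 of the 1359 genes (20.6%, 18.5 to 22.8), close to the 19.1% of all genes. In such leaders 271 summits lay in the first exon, at 0.325 per kb (0.287 to 0.366), and 26 in later exons, at 0.0742 per kb (0.0485 to 0.109). Later exons lie farther from the TSS. At 300 bp or more from the TSS, over all leaders, the density was still 0.222 per kb in the first exon (144 summits, 0.187 to 0.261) and 0.0680 per kb in later exons (22 summits, 0.0426 to 0.103). Over all 1426 summits, 1400 (98.2%) were in the first exon.

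Leaders with summits often held another annotated start site. For 412 summits (28.9%, 26.6 to 31.3) another transcript of the same gene began downstream of the summit, against 21.0% of 5' UTR bases. Within 300 bp downstream this was so for 339 summits (23.8%, 21.6 to 26.1), against 15.2% of bases. Where there was such a start, it lay at a median of 94.5 bp from the summit. Those summits are in the 5' UTR of the first listed transcript and upstream of a shorter one. A position nearer to the TSS has more of the gene downstream, and summits and bases were not matched for position. Over 100 bp past the TSS only, a start downstream was found for 23.9% of summits and 17.4% of bases. A gene of another type (non-coding RNA, pseudogene and the like) overlapped 38 summits (2.66%, 1.95 to 3.64), against 2.05% of bases.

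The scores of 5' UTR summits were lower than those of upstream summits. The median score was 8.30 in 5' UTRs (7.91 to 8.89, quartiles 4.77 and 16.7, n = 1426), against 11.3 for summits within 1 kb upstream of a protein-coding gene (10.9 to 11.7, n = 5099). It was above the median in coding exons, 7.01 (6.74 to 7.31, n = 2224), and in 3' UTRs, 7.09 (6.48 to 7.79, n = 590), while the interval of introns, 8.19 to 9.56 around 8.87 (n = 892), overlapped with that of 5' UTRs. The median over all other summits was 10.4 (n = 12567). In the list as a whole, 5' UTR summits made up 12.1% of the summits in the lowest quartile of the score, 11.4% and 9.81% of the middle quartiles and 7.46% of the highest.

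**Figure D2:**
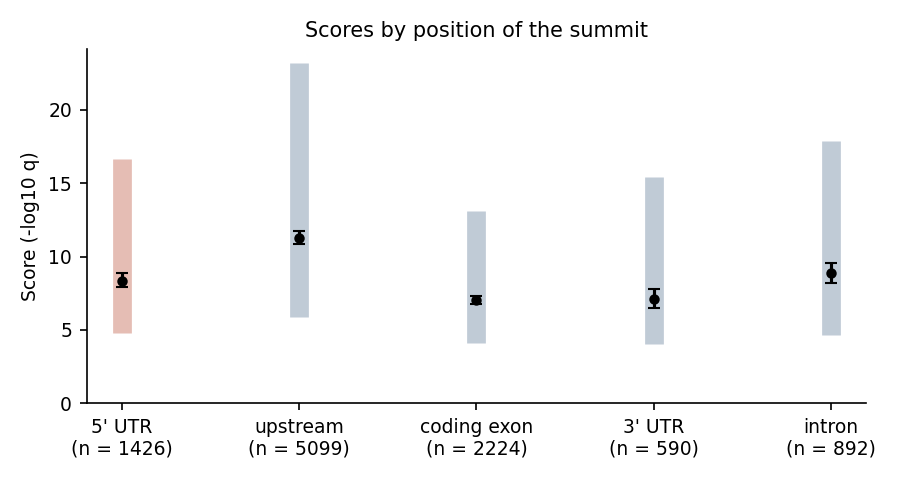
Score of summits (y axis, -log10 q) by their position, with 5' UTR summits on the left. Points are medians with 95% intervals and bars span the quartiles. The 5' UTR median of 8.30 lies below the upstream median of 11.3 and above the medians of 7.01 in coding exons and 7.09 in 3' UTRs.

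The range of 5' UTR scores was wide, and the highest score of all 13993 summits, 197, was that of a 5' UTR summit. It lay at chr3:6474745, in the first exon of the leader of *ACT2*, 35 bp from the TSS. *ACT2* encodes actin 2, an actin of vegetative tissue. The next score in the list, 180.0, belonged to a summit outside 5' UTRs, and the second 5' UTR score was 92.8. *ACT2* therefore stood apart from the other members of the class. It had no summit within 1 kb upstream.

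The 24 highest-scoring 5' UTR summits, all at 61.9 or more, lay in genes of varied function. Of these, 12 were within 100 bp of the TSS, 2 were over 1000 bp from it, 14 had no summit within 1 kb upstream, and 4 had a G-box within 50 bp. Among enzymes and transporters, the second-ranked gene AT4G37550 encodes an acetamidase/formamidase family protein (score 92.8, 255 bp from the TSS). *SULTR1;2*, a high-affinity sulfate transporter of the root, scored 84.7 at 148 bp, and *PUP7*, a purine permease, scored 78.8 at 43 bp. These genes had leaders of 574, 880 and 294 bp.

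*CESA1*, a catalytic subunit of the cellulose synthase of the primary wall, scored 68.1 at 128 bp. *VTC5*, a GDP-L-galactose phosphorylase of ascorbate synthesis, scored 66.3 at 42 bp, and *NIT1*, a nitrilase, scored 65.0 at 100 bp. *CESA1* and *VTC5* had no upstream summit, while *NIT1* had 2 of up to 42.6. *HA1*, a proton pump of the plasma membrane, scored 65.2 at 1431 bp, in the second exon of its leader. *DFL2*, a member of the GH3 family of auxin-responsive genes, scored 84.0 at 1511 bp, in the third exon. *HA1* and *DFL2* were the 2 of the 24 that lay over 1000 bp from the TSS, and neither had an upstream summit.

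Others of the 24 encode transcription factors, receptors and kinases. The TCP family transcription factor AT5G23280 (*TCP7*) scored 85.4 at 166 bp and *MYB17*, a MYB transcription factor, 82.0 at 135 bp. The myb-like gene AT1G25550 scored 65.8 at 24 bp, and *PTL*, a trihelix transcription factor of flower development, 61.9 at 26 bp. AT1G25550 was the only one of the 24 with a higher upstream summit, of 85.5. The auxin receptor gene *TIR1* scored 80.5 at 99 bp, the flagellin receptor gene *FLS2* 75 at the first base of its transcript, and the kinase gene AT2G45590 83.2 at 421 bp. *RCD1*, which encodes a WWE domain protein of the stress response, scored 71.5 at 121 bp. The PHD finger gene AT2G18090 scored 65.3 at 10 bp and the kinase gene AT5G44290 62.9 at 23 bp.

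The neighbours AT5G66580, an uncharacterized gene with a G-box within 50 bp, and AT5G66590, of the CAP superfamily, scored 80.9 at 106 bp and 71.1 at 53 bp. The remaining genes were AT2G25200, of unknown function (75.8 at 10 bp), AT2G25460, with an EEIG1/EHBP1 domain (63.0 at 73 bp), and AT3G12020, of the P-loop NTPase superfamily (62.9 at 116 bp).

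**Figure D3:**
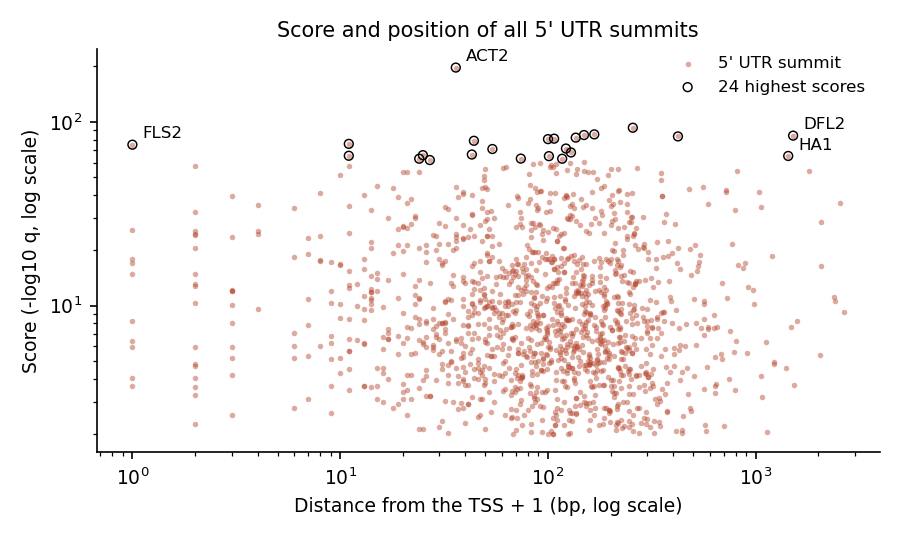
Score (y axis, -log10 q, log scale) against distance from the TSS plus 1 bp (x axis, log scale) for each of the 1426 5' UTR summits. Black circles mark the 24 highest scores, of 61.9 or more. *ACT2*, at 197, stands above all others, and *DFL2* and *HA1* lie over 1000 bp from the TSS.

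Most genes had 1 summit in the leader (1295 genes), while 61 had 2 and 3 had 3. The 3 genes with most summits had leaders of 1112 to 1146 bp. In AT1G21400, of the thiamine diphosphate-binding fold, the scores were 3.90 at 118 bp, 10.8 at 501 bp and 41.5 at 1035 bp from the TSS. In *BEH3*, a homologue of the brassinosteroid transcription factors BES1 and BZR1, they were 40.8 at 107 bp, 2.23 at 566 bp and 34.2 at 1057 bp. In AT4G19160, of the transglutaminase family, they were 2.46 at 105 bp, 2.11 at 212 bp and 5.09 at 688 bp. The highest summit was thus the farthest from the TSS in 2 of these 3 genes, and the nearest in *BEH3*.

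Genes with a 5' UTR summit had an upstream summit more often than other genes. Within 1 kb upstream of their own TSS, 442 of the 1359 genes (32.5%, 30.1 to 35.1) had a summit, against a background of 19.2% over all genes with a 5' UTR and 18.3% of genes without a 5' UTR summit (17.7 to 18.8). Single peaks with several summits were among these, since 265 of the 5' UTR summits (18.6%) shared their peak with an upstream summit of the same gene. With 1 summit kept per peak the order turned round, 15% of genes with a 5' UTR summit against 17.9% of all genes. Keeping 1 summit removes by construction every pair inside a peak. The shares were not matched for leader length, and genes with a 5' UTR summit had longer leaders. Over all genes, an upstream summit was found in 10.3% with leaders under 100 bp. The share was 23.8% at 200 to 300 bp, 26.2% at 300 to 500 bp and 25.5% at 500 bp or more.

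Within a shared peak the upstream summit was mostly the higher. The 5' UTR summit scored below it in 181 of 265 cases (68.3%, 62.5 to 73.6), and the upstream score was higher by a median of 3.53 (2.43 to 5.47). Over all 5' UTR summits of genes with an upstream summit, 161 of 469 (34.3%) scored above the highest upstream one. The 5' UTR scores themselves were alike with and without an upstream summit, at medians of 8.39 (7.57 to 9.60, n = 469) and 8.29 (7.86 to 8.94, n = 957). A 5' UTR summit was the only summit of its peak in 61.9% of cases (882, 59.3 to 64.3), against 56.1% for all other summits.

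The sequence around 5' UTR summits was searched for 12 motifs, on either strand, in a window of 50 bp on each side. The G-box CACGTG was found at 118 summits (8.27%, 6.95 to 9.82), against 1.71% of all 5' UTR positions searched with the same window. The overlapping motif ACGTGG was found at 8.42% of summits (7.08 to 9.97), against 2.56%. GTGGGCCC, a site of TCP transcription factors, was found at 4 summits (0.281%, 0.109 to 0.719), against 0.0296% of positions and 0.530% of upstream summits. Its ratio of summits to positions, 9.47, was the largest of the 12 motifs but rests on these 4 summits. TTGACC, a W-box core bound by WRKY factors, was found at 5.75% (4.66 to 7.08), against 3.76%. Upstream summits had CACGTG in 11.0% of cases (10.2 to 11.9), ACGTGG in 10.8% and TTGACC in 7.61%. Of these 3, only the interval of CACGTG did not overlap with that of 5' UTR summits.

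G-boxes were gathered at the summits. Within 50 bp there were 129 sites, which is 0.905 per kb (0.755 to 1.07), and 200 to 300 bp away 41 sites, which is 0.144 per kb (0.103 to 0.195). The density over all 5' UTR bases was 0.184 per kb. Summits with a G-box had a median score of 10.5 (8.88 to 14.6, n = 118), against 8.11 for those without (7.76 to 8.64, n = 1308). From the lowest to the highest quartile of the 5' UTR scores the share with a G-box was 6.16%, 6.18%, 8.71% and 12%. The distance from the TSS was the same in both sets, with a median of 105 bp.

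**Figure D4:**
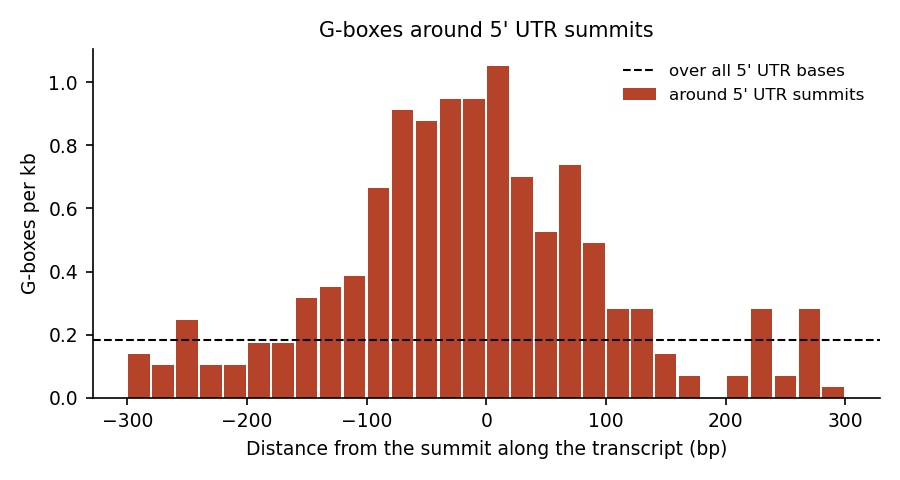
Number of G-boxes per kb (y axis) in 20 bp bins by distance from the 5' UTR summit along the transcript (x axis, bp, positive downstream). The dashed line is the density of 0.184 per kb over all 5' UTR bases, and the bars reach 1.05 per kb at the summit.

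AAACCCTA, the telo-box that is common in the promoters of genes for ribosomal proteins and the translation machinery, was rarer at the summits than elsewhere in leaders. It was found at 26 summits (1.82%, 1.25 to 2.66), against 4.37% of 5' UTR positions. The purine repeat GAAGAA was also less common, at 24.5% of summits (22.4 to 26.8), against 29.7%. A separate count by strand of the transcript gave GAAGAA at 9.33% (7.92 to 10.9), against 11.2%, and CTTCTT at 13.0% (11.4 to 14.9), against 17%. These strand shares are together smaller than the 24.5%, so they were counted in another way and are no split of that search. TATAAA, the core of the TATA box, was found at 13.5% (11.9 to 15.4), against 15.4%, which lies at the edge of the interval.

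For the other motifs the share of all 5' UTR positions lay within the interval of the summits. GAGAGA was found at 27.8% of summits (25.5 to 30.2), against 26.4%, and AAAAAA at 31.7% (29.3 to 34.2), against 30.3%. GATAAG was found at 6.03% (4.91 to 7.39), against 5.27%, and TGGGCC at 2.31% (1.65 to 3.23), against 1.97%. AAATATCT, the evening element of clock genes, was found at 1.61% (1.08 to 2.41), against 1.38%. Upstream summits lay apart from 5' UTR summits and from 5' UTR positions in GAGAGA, with 10.6%, in GAAGAA, with 12.3%, in AAAAAA, with 26.8% (25.6 to 28.0), in TGGGCC, with 5.79%, and in AAACCCTA, with 0.667%. The G+C content within 50 bp had a median of 37.6% at 5' UTR summits, against 36.6% over all 5' UTR positions. It was 37.6% at upstream summits too. Within 25 bp the medians at 5' UTR summits and over all 5' UTR positions were the same, at 37.3%. A match to a motif is a description of the sequence and does not show that a factor was bound.

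The gene lists compared with the background of 6.90% differed widely. They were chosen with earlier results of these data known, so their shares are descriptions and give no independent support for an enrichment. Light signalling had the largest share, with a 5' UTR summit in 12 of 22 genes (54.5%, 34.7 to 73.1). These leaders were long, with a median of 402 bp, and among all genes with leaders of at least 300 bp the share was 17% (829 of 4888). Within that length 11 of 17 light signalling genes had a summit. An upstream summit was found in 10 of the 22 genes (45.5%), against 19.2% of all genes.

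The members of this list were photoreceptors and the factors they act on. Of the phytochrome-interacting factors, bHLH proteins that bind G-boxes, *PIF4* scored 40.2 at 240 bp from the TSS and *PIF5* (*PIL6*) 35.8 at 239 bp. Both had a G-box within 50 bp of the summit, and their upstream summits scored up to 25.2 and 60.4. *PIF7* scored 8.87, *PIF1* (*PIL5*) 6.97 and *PIF3* 5.52, the last in the second exon of its leader. The cryptochrome genes *CRY1* and *CRY2*, which encode blue light receptors, scored 10.9 and 3.71, and the phytochrome genes *PHYA* and *PHYE*, for red and far-red light receptors, 6.01 and 3.62. *HFR1*, a bHLH factor of far-red signalling, scored 5.01, *FHY3*, a transcription factor of the phytochrome A pathway, 3.88, and *SPA4*, a partner of the ubiquitin ligase COP1, 2.46. Apart from *PIF4*, *PIF5*, *PIF7* and *CRY1* these scores lay below the median of 8.30 of all 5' UTR summits, and *PHYB* and *HY5* had no 5' UTR summit.

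Abscisic acid signalling had a 5' UTR summit in 9 of 30 genes (30%, 16.7 to 47.9). Among the receptors *PYL5* scored 56.8 at 101 bp, *PYL4* 14.3 at 131 bp, *PYL8* (*RCAR3*) 13.8 at 23 bp and *PYR1* 5.51 at 121 bp. Of the PP2C phosphatases that these receptors inhibit, *HAB2* scored 24.1 at 1 bp, *HAI1* 12.1 at 190 bp and *ABI1* 9.70 at 48 bp and 3.31 at 366 bp. The bZIP factors *ABF4* and *ABI5* scored 9.17 and 2.85. Receptors, phosphatases and transcription factors were all among the 9 genes. The median leader of the list was 266.5 bp, and 6 of the 13 genes with leaders of at least 300 bp had a summit.

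Auxin signalling had a 5' UTR summit in 13 of 48 genes (27.1%, 16.6 to 41.0). The receptor genes were *TIR1*, given above, and *AFB2*, with 21.3 at 20 bp. Of the Aux/IAA repressors, *IAA2* scored 53.8 at 148 bp, which is 1 bp before its start codon, and *IAA3* (*SHY2*) 44.0 at 49 bp in a leader of 70 bp. *IAA16* scored 12.2, *IAA26* (*PAP1*) 10.8 and *IAA18* 8.11 and 6.92. Of the auxin response factors, *ARF2* scored 18.3, *ARF19* 17.8, *ARF6* 11.5, *ARF3* (*ETT*) 9.88, *ARF5* (*MP*) 5.31 and *ARF17* 4.4. The receptors and *IAA2* and *IAA3* had lower upstream summits, of 18.1 at most, while *IAA16*, *ARF2* and *ARF6* had higher ones, of 58.4, 29.4 and 28.1. Of the 7 genes with both kinds of summit, the 5' UTR score was thus the higher in 4. It was the higher in 2 of 6 such genes of light signalling, 1 of 3 of abscisic acid signalling and 1 of 2 of the clock list. In this list 11 of 26 genes with leaders of at least 300 bp had a summit.

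The clock list had 3 of 16 genes with a 5' UTR summit (18.8%, 6.59 to 43.0), an interval that includes the 6.90%. They were *CHE* (*TCP11* in the annotation), a TCP factor, with 55.0 at 217 bp, *RVE8*, a MYB-like activator, with 8.89 at 63 bp, and *ZTL*, an F-box photoreceptor, with 7.60 at 51 bp. Upstream summits were found in 11 of these 16 genes (68.8%, 44.4 to 85.8), against 19.2% of all genes. Only the interval of the upstream share lies wholly above its background.

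Of SWR1 subunits and related genes 1 of 17 had a 5' UTR summit (5.88%, 1.05 to 27.0). It was *HTA9*, which encodes an H2A.Z histone, with a score of 4.75 at 32 bp. The *MBD9* gene, whose genomic fragment is also in the transgene, had no 5' UTR summit. Of the 43 summits over the *MBD9* fragment and AT5G24350, 0 were in a 5' UTR. AT5G24350 is another gene, set aside together with that fragment when the processing was varied.

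**Figure D5:**
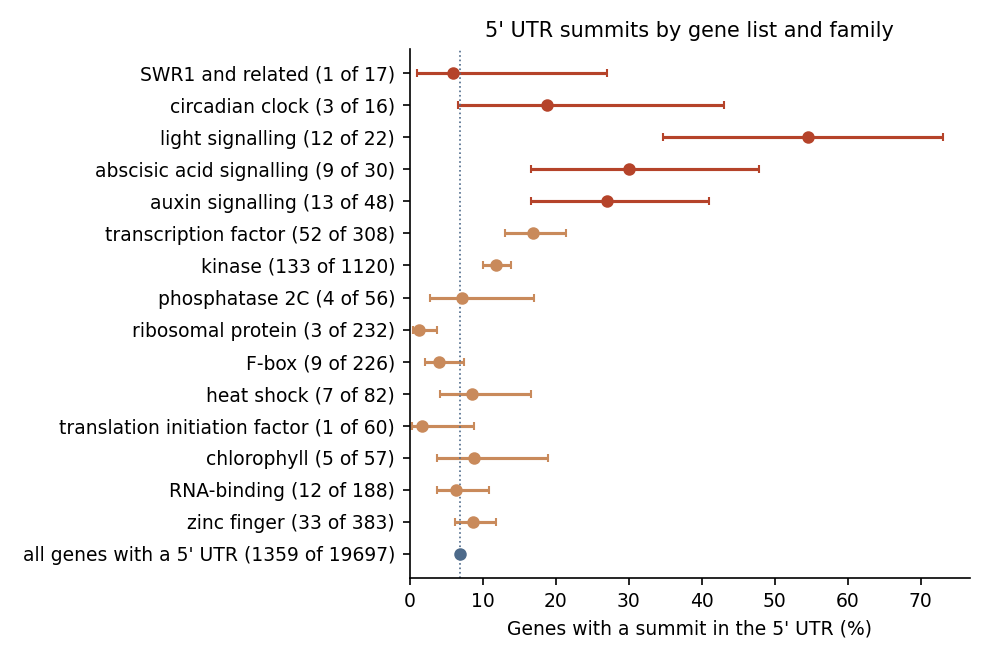
Percentage of genes with a summit in the 5' UTR (x axis) for 5 gene lists in red, 10 families found by words in gene descriptions in orange, and all genes with a 5' UTR in blue and as a dotted line. Bars are 95% Wilson intervals. Light signalling lies highest at 54.5% and ribosomal protein genes lowest at 1.29%, on either side of the background of 6.90%.

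Gene families found by words in the descriptions, also chosen with earlier results known, were set against the same background. Genes described as transcription factors had a 5' UTR summit in 52 of 308 cases (16.9%, 13.1 to 21.5), at 0.602 summits per kb of leader. Kinase genes had one in 133 of 1120 cases (11.9%, 10.11 to 13.9), at 0.421 per kb. Their median leaders were 269.5 and 262.5 bp long. The intervals of both lay above the background and above the 8.47% of all genes with leaders of 200 to 300 bp. Only the median leader of each family is known to lie in that class, and the families were not matched for leader length.

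Ribosomal protein genes had a 5' UTR summit in 3 of 232 cases (1.29%, 0.441 to 3.73), at 0.0916 per kb, which lies below the background. Their median leader was 125.5 bp long, and the 2.44% of all genes with leaders of 100 to 200 bp lies within the interval. The highest of the 3 was AT5G16200, which encodes a ribosomal protein-like protein, at 25.4. Of genes for translation initiation factors 1 of 60 had one (1.67%, 0.295 to 8.86), *EIF4B2*, at 6.21, and the interval includes the background. F-box genes had one in 9 of 226 cases (3.98%, 2.11 to 7.39), of which *TIR1* was the highest, and here too the background lies within the interval.

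The intervals of the remaining families included the background. They were 7 of 82 genes with the words heat shock (8.54%), led by the heat stress factor gene *HSFA3* at 38.7. Genes with the words chlorophyll or photosystem had 5 of 57 (8.77%), led by the antenna gene *LHCB4.3* at 24.5. Zinc finger genes had 33 of 383 (8.62%), led by AT2G36320 at 38.0, and RNA-binding protein genes 12 of 188 (6.38%), led by *DRB3* at 28.3. Genes with the words phosphatase 2C had 4 of 56 (7.14%), led by AT3G16800 at 18.8. The PP2C gene *HAB2*, at 24.1, is not described by these words and is not counted there. A family word finds only genes that are so described, so that a gene can be in several families or in none.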

How the data were processed

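Data were a summit list from 1 MBD9-3xFLAG and 1 wild-type FLAG library. The authors aligned reads to TAIR10 without organelles with Bowtie, kept unique reads, removed duplicates with SAMtools and called peaks with MACS2 2.1.1 (q value cutoff 0.01, extension size 200 bp). The deposited score is -log10 of the q value. Peak widths, coverage and read numbers were not used here, so that depth is unknown. Reads from repeats could not add to a summit.

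Summits were set to 1-based positions and placed on RefSeq TAIR10.1 gene models, whose start sites can differ from those of TAIR10. All summits lay within its chromosome lengths. Distances were measured from the start of the first listed transcript, and a TSS in the exclusion was the 5' end of the gene. Of 27444 protein-coding genes, 23426 had a 5' UTR and 19697 had one with a base that meets the conditions. Sequence windows were 50 bp on each side of a base, and the 5' UTR background held all 4297818 bases that meet the conditions. With 1 library per group no test was possible. Intervals are 95% Wilson (shares), binomial order statistics (medians) and exact Poisson (densities). Placement on gene models, the motif search and the median interval were tested on simulated data.

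The members and gene lists were chosen with earlier results of these data known. Named genes were those of the 24 highest-scoring members, the 3 genes with most 5' UTR summits, members in the 5 lists, the leading gene of each of 10 families, and the 6 highest-scoring members with CACGTG within 20 bp. A list of conserved upstream reading frames was not used here, since its members could not be matched in the annotation. Alternatives covered the score, summits per peak, transcript, core promoter, exclusions, transgene and window width. Analyses used Python 3.11.15, NumPy 2.4.6, SciPy 1.17.1 and Matplotlib 3.10.9.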

Additional observations from a re-analysis of the deposited data

How the results depend on the processing

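Of 59 alternatives over 9 results, 29 left the value within the interval given for it, 29 moved it beyond that interval and 1 turned a comparison round. With only summits of at least the median score, 5' UTR summits were 8.63% of summits, at 0.141 per kb, a median score of 18.3, a median TSS distance of 97 bp, a distance of 392 bp between TSS and start codon, 24.2% of genes with an upstream summit, 33.1% with a start site downstream, 38.6% G+C and 10.099% with CACGTG. With 1 summit per peak these were 0.255 per kb, a score of 9.18, 95.5 bp, and 15% of genes with an upstream summit, which is below the 17.9% of all genes and so the reverse of the main order. With the 5' UTR of any transcript the share was 11.6%, the density 0.296 per kb and the TSS distance 113 bp. With no exclusions the share was 11.8%. Over 100 bp past the TSS only, the share was 5.22%, the density 0.279 per kb, the score 7.90, the TSS distance 194 bp, the distance between TSS and start codon 446 bp (375 bp in the main analysis), the share with an upstream summit 36.8%, with a start site downstream 23.9% and the G+C content 38.6%. An upstream window of 500 bp gave 18.9%. Windows of 25 and 100 bp gave 37.3% and 36.8% G+C, against 37.3% and 36.3% over all 5' UTR positions. They gave CACGTG at 4.35% and 13.8% of summits, against 0.828% and 3.64% of positions. Narrower selections hold fewer summits or bases by construction, and other causes were not tested.

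No paired analysis was possible because there was 1 library per group and no test was made. Depth is unknown, so weak 5' UTR summits below the score cutoff of 2 cannot be counted, and whether short leaders lack them is not known from the list.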
